A study of Mus musculus with 11 samples.

Results

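The transforming growth factor beta (TGF-beta) genes described here are 10 listed genes: the ligands Tgfb1, Tgfb2 and Tgfb3, the receptors Tgfbr1, Tgfbr2 and Tgfbr3, and the latent TGF-beta binding proteins Ltbp1, Ltbp2, Ltbp3 and Ltbp4. They were found by symbol. All 10 were present among the 24969 names of the bulk count table, the 27999 genes of the sorted single-cell library and the 31053 genes of each whole-mesenchyme library. The cells came from mouse small intestine that had been stripped of muscle and epithelium and digested with collagenase. Bulk RNA sequencing covered 4 sorted populations with 2 libraries each. Telocyte libraries were made from GFP-high cells of the PDGFRAH2BEGFP strain, a transgenic mouse in which nuclear GFP reports Pdgfra. PDGFRAlo libraries were made from GFP-low cells of the same strain. CD31 libraries were CD31+LYVE1- cells (blood endothelium) and LYVE1 libraries were CD31+LYVE1+ cells (lymphatic endothelium), both from C57BL/6 mice, so strain and cell lineage cannot be told apart in a comparison of PDGFRA populations with endothelium. Droplet libraries held sorted PDGFRA-EGFP cells, loaded at 2 GFP-low to 1 GFP-high (1 library), and whole mesenchyme (2 libraries). No treatment or mutation was compared. The labels give no ages and do not say whether replicates were separate animals, so a p-value here reflects only how far these libraries lay apart, which may be technical variation.

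TGF-beta ligands are secreted as latent dimers whose propeptide masks the active part. Latent TGF-beta binding proteins tether most of these complexes to fibrillin and fibronectin in the matrix, from which integrins or proteases release them. LTBP1, LTBP3 and LTBP4 bind the latent ligand, whereas LTBP2 binds fibrillin and elastic fibre proteins but not latent TGF-beta. The free ligand binds the type II receptor Tgfbr2, which phosphorylates the type I receptor kinase Tgfbr1, and Smad proteins carry the signal to the nucleus. Tgfbr3 (betaglycan) is a co-receptor that presents ligand, Tgfb2 above all, to Tgfbr2. In the intestine the pathway is known for restraining mucosal immune cells and for matrix production by fibroblasts.

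Each sorted antigen was highest in the libraries named for it, but Pecam1 did not follow the labels in all others. Pdgfra had 2401 and 2972 CPM, counts scaled to library size, in the Telocyte libraries and 330 and 471 CPM in the PDGFRAlo libraries, Pecam1 (CD31) was highest in CD31 libraries (802 and 909 CPM) and Lyve1 in LYVE1 libraries (1919 and 3415 CPM). Pecam1 had 123 and 198 CPM in the LYVE1 libraries, although that sort was CD31+. The PDGFRAlo libraries had 299 and 93.4 CPM of it, which overlap the LYVE1 values. Markers of other cells were present in several libraries. The 8 blood endothelial markers summed to 72.8 and 49.6 CPM in Telocyte libraries, against 3037 and 1085 CPM in PDGFRAlo libraries, with none at 0. The 8 macrophage markers summed to 2727 and 2032 CPM in CD31 libraries, against 7252 and 9663 CPM in LYVE1 libraries, where the 8 lymphatic markers summed to 3986 and 7601 CPM and Ccl21a, one of them, was at 0. Plasma cell markers summed to 269 and 265 CPM in CD31 libraries and to 5399 and 2929 CPM in LYVE1 libraries, and B cell markers to 195 and 103 CPM in CD31 and 2388 and 852 CPM in LYVE1 libraries. The LYVE1 libraries held more macrophage than lymphatic marker counts, so their values are described as those of the CD31+LYVE1+ sort and cannot be taken as lymphatic endothelium alone. In bulk samples a gene's fewer expressing cells and its lower RNA per cell cannot be told apart. Single cells were assigned by counting the distinct markers of 15 lists that each cell carried, and the names telocyte-like, fibroblast-like and so on stand for those marker patterns only. The 2 whole-mesenchyme libraries shared 7 cell barcodes among 6128 and 5927 kept cells. Their UMI counts were close to counting noise in fibroblast-like cells (median chi-square per gene 0.564, where counting alone gives 0.455). The median was lowest in smooth muscle-like cells (0.526) and higher in dendritic-like (0.691) and macrophage-like cells (0.741). The small spread between the 2 libraries gave very small p-values.

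The promoters of Ltbp2, Ltbp4 and Tgfb2 are shown because these 3 genes were called between the Telocyte and PDGFRAlo libraries, as described below. Each run is the 250 bases upstream of a RefSeq transcription start (GRCm38.p6), 5′ to 3′ on the gene's strand. Capitals mark GC boxes (GGGCGG, either strand) and, in Tgfb2, a TATA box (TATAAA).
Ltbp2, chr12:84876492-84876741, minus strand: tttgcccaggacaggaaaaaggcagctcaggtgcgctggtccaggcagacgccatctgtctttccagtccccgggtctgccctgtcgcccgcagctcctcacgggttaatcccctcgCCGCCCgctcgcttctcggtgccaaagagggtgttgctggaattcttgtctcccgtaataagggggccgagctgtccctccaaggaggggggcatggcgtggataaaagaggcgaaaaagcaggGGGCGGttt
Ltbp4, the first of its 3 listed starts, chr7:27337613-27337862, minus strand: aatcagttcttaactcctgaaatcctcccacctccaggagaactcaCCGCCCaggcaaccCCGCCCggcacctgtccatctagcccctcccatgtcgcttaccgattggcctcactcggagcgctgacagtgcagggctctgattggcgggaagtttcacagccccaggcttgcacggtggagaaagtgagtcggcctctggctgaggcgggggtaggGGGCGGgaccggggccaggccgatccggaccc
Tgfb2, chr1:186705990-186706239, minus strand: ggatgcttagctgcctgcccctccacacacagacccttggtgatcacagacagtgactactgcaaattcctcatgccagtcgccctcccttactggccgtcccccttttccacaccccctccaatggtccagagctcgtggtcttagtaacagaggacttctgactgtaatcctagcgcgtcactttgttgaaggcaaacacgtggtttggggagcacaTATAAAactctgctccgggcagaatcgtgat

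In GRCm38 (GENCODE M21) the genes themselves span chr12:84783212-84876532 for Ltbp2, chr7:27305136-27337692 for Ltbp4 and chr1:186622792-186705989 for Tgfb2. The promoter table held 12 starts for 8 of the 10 genes, and Tgfb3 and Tgfbr3 were not among them. GC boxes were found in the promoters of Tgfb1 (5 matches), Tgfbr1, Ltbp2 (2 matches) and Ltbp4, and 32.7% of all 32851 promoters held one. The TATA box was found only in Tgfb2 among the 12, against 12.4% of all promoters. The SMAD palindrome GTCTAGAC (0.167% of all promoters), the AP-1 motif TGANTCA (6.75%) and the forkhead motif TGTTTAC (3.17%) were in none of the 12. The shorter SMAD motif CAGAC occurred 2 times in Ltbp2, 2 times in Tgfb2 and in no Ltbp4 promoter, and 42.2% of all promoters held it. Both strands were searched. A match of letters is a description and says nothing of binding.

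Between the PDGFRA populations, Ltbp2 was higher and Ltbp4 and Tgfb2 were lower in Telocyte than in PDGFRAlo libraries, while the libraries of both signalling receptors, Tgfbr1 and Tgfbr2, overlapped. The count of called genes was 1 higher and 2 lower of 10 (edgeR quasi-likelihood test, Benjamini-Hochberg adjusted p below 0.05), beside 2.77% of all 14893 genes called higher and 12.1% called lower (14.9% in all). Libraries of the 2 groups did not overlap for 6 of the 10 genes, against 61.8% of all genes. The median log2 fold change of the 10 was -0.43, against -0.03 over all genes tested. In whole mesenchyme, where UMIs were summed per class and library, telocyte-like cells (76 and 81 cells) had 1 of the 10 called higher and 6 lower than fibroblast-like cells (1057 and 988 cells), beside 10.7% of 11504 genes called higher and 13.2% lower (23.9% in all). The 10 genes had a median log2 fold change of -0.91 there, against -0.05 over all genes. Levels in single cells are the CPM of a class within a library, from its UMIs without further scaling, and fold changes come from the scaled fit.

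Of the ligands, Tgfb2 showed the larger difference. It had 44.8 and 12.9 CPM in Telocyte libraries and 94.2 and 123 CPM in PDGFRAlo libraries, which do not overlap, a log2 fold change of -1.92 ± 0.56 (SE, adjusted p = 0.0495). This call ended when any library other than Telocyte replicate 1 was left out (adjusted p 0.0518 to 0.253 in those 7 fits), with RLE size factors (0.0605) and when only the Telocyte and PDGFRAlo libraries were fitted (0.0899). The log2 fold change was -3.09 without Telocyte replicate 1 and -1.28 without Telocyte replicate 2. The same direction was found in whole mesenchyme with a larger fold. Telocyte-like cells had 15.7 and 18.2 CPM of Tgfb2, against 140.4 and 146 CPM in fibroblast-like cells (log2 fold change -3.27 ± 0.23, adjusted p = 2.39e-15). In the sorted library, which has no replicate and was not tested, 463 telocyte-like cells had 13.5 CPM (exact 95% Poisson interval 9.29 to 18.9) and 2640 fibroblast-like cells had 99.7 CPM (94.3 to 105). These intervals cover counting error only. Tgfb3 had 171 and 163 CPM in Telocyte and 164 and 253 CPM in PDGFRAlo libraries, which overlap, and it was not called (adjusted p = 0.799). In whole mesenchyme it was lower in telocyte-like cells, at 71.7 and 44.1 CPM against 96.8 and 89.4 CPM in fibroblast-like cells (log2 fold change -0.91 ± 0.18, adjusted p = 8.15e-05). Tgfb1, the ligand best known from immune cells and platelets, was low in both populations and called in neither comparison. Its bulk libraries overlapped, with 33.4 and 26.1 CPM in Telocyte and 57.5 and 22.0 CPM in PDGFRAlo. Whole mesenchyme gave 49.0 and 57.8 CPM in telocyte-like and 35.8 and 36.6 CPM in fibroblast-like cells (adjusted p = 0.204).

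**Figure D1:**
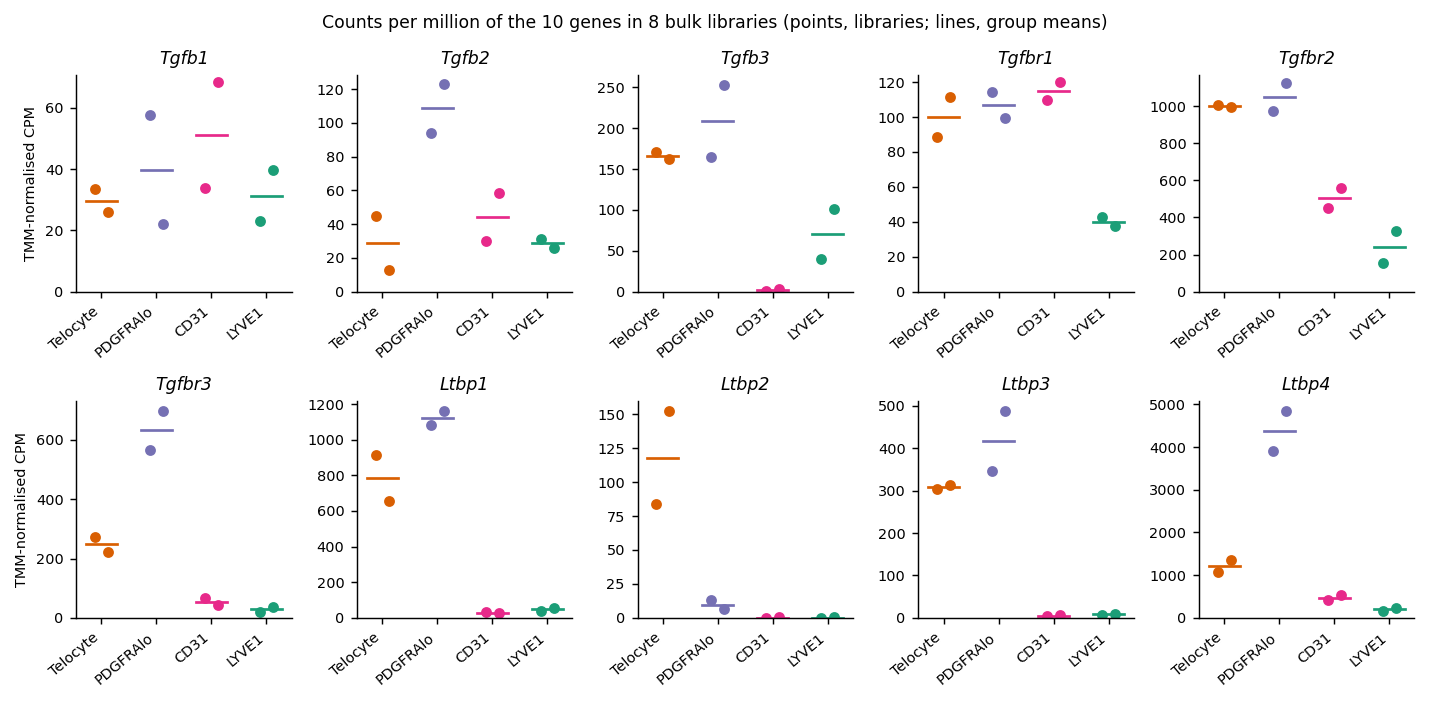
TMM-normalised CPM (linear axis from 0) of each of the 10 genes in the 8 bulk libraries, with points for libraries and lines for group means. Ltbp2 stands highest in Telocyte libraries (83.9 and 152 CPM), Ltbp4 in PDGFRAlo libraries (3917 and 4849 CPM), and Tgfb3 is lowest in CD31 libraries (1.02 and 2.89 CPM).

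The receptor kinases were not called, and the co-receptor lay close to the threshold. Tgfbr2 had 1007 and 997 CPM in Telocyte and 976 and 1123 CPM in PDGFRAlo libraries. Tgfbr1 had 88.4 and 111 CPM in Telocyte and 114 and 99.5 CPM in PDGFRAlo libraries. Both overlapped, with log2 fold changes of -0.07 ± 0.42 and -0.10 ± 0.29, and neither was called in whole mesenchyme. There Tgfbr2 (log2 fold change -0.25 ± 0.11, adjusted p = 0.107) was called lower in telocyte-like cells in 4 of 7 alternatives, with log2 fold changes of -0.35 to -0.24, among them clusters in place of gates (0.00637), predicted doublets kept (0.0151) and DESeq2 (0.0276). The co-receptor Tgfbr3 had 274 and 223 CPM in Telocyte and 567 and 698 CPM in PDGFRAlo libraries. Its groups did not overlap, yet it missed the threshold (log2 fold change -1.35 ± 0.40, adjusted p = 0.0518). It passed when CD31 replicate 1, CD31 replicate 2 or LYVE1 replicate 1 was left out (0.0446 to 0.0481), with DESeq2 (0.00776), with no low-count filter (0.0244) and in a fit of these 4 libraries alone (0.0262). In whole mesenchyme Tgfbr3 fell to 142 and 109 CPM in telocyte-like cells, against 342 and 358 CPM in fibroblast-like cells (log2 fold change -1.70 ± 0.12, adjusted p = 6.59e-16). The sorted library had 63.4 CPM (53.8 to 74.2) in telocyte-like and 148 CPM (142 to 155) in fibroblast-like cells.

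Among the binding proteins, Ltbp2 and Ltbp4 moved in opposite directions. Ltbp2 had 83.9 and 152 CPM in Telocyte and 13.3 and 6.33 CPM in PDGFRAlo libraries, a log2 fold change of 3.59 ± 0.80 (adjusted p = 0.0152). The call ended without Telocyte replicate 2 (0.100), without PDGFRAlo replicate 2 (0.0942) and with DESeq2 (0.159), with log2 fold changes of 3.10 to 3.66 in those fits. Whole mesenchyme gave 45.5 and 36.5 CPM in telocyte-like cells and 2.99 and 3.54 CPM in fibroblast-like cells, from 50 UMIs on each side (log2 fold change 3.42 ± 0.44, adjusted p = 6.69e-08). With DESeq2 the adjusted p there was 0.246. The sorted library had 34.3 CPM (27.4 to 42.5) in telocyte-like and 1.26 CPM (0.722 to 2.05) in fibroblast-like cells. Of the exon bases of Ltbp2, 9.34% lie under D030025P21Rik on the other strand, which had 26 and 19 counts in Telocyte libraries and 5 and 0 in PDGFRAlo libraries. Without a stated strand setting the bulk reads of the pair cannot be told apart there.

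Ltbp4, the most abundant of the 10 per length in every bulk group, had 1070.2 and 1354 CPM in Telocyte and 3917 and 4849 CPM in PDGFRAlo libraries (log2 fold change -1.85 ± 0.41, adjusted p = 0.0147). The libraries did not overlap. The call ended without Telocyte replicate 1 (adjusted p = 0.141), without Telocyte replicate 2 (0.0948) and without PDGFRAlo replicate 2 (0.0686), while the log2 fold change stayed between -2.04 and -1.69. Whole mesenchyme gave 464 and 468 CPM in telocyte-like and 1405 and 1367 CPM in fibroblast-like cells, a log2 fold change of -1.78 ± 0.13 (adjusted p = 9.67e-15). In the sorted library the levels were 325 CPM (302 to 348) in telocyte-like and 1131 CPM (1113 to 1150.0) in fibroblast-like cells. Ltbp1 and Ltbp3 were lower in both Telocyte libraries than in both PDGFRAlo libraries without passing the test. Ltbp1 had 914 and 654 CPM in Telocyte and 1084 and 1161 CPM in PDGFRAlo libraries, and Ltbp3 had 304 and 314 CPM in Telocyte and 347 and 488 CPM in PDGFRAlo libraries. In whole mesenchyme both were called lower in telocyte-like cells, with log2 fold changes of -1.08 ± 0.10 for Ltbp1 and -0.90 ± 0.14 for Ltbp3. Free RNA, taken from unfiltered barcodes, held 511 and 398 CPM of Ltbp4 in the whole-mesenchyme libraries, while the 5 immune classes had between 1.24% and 7.09% of the free-RNA level.

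**Figure D2:**
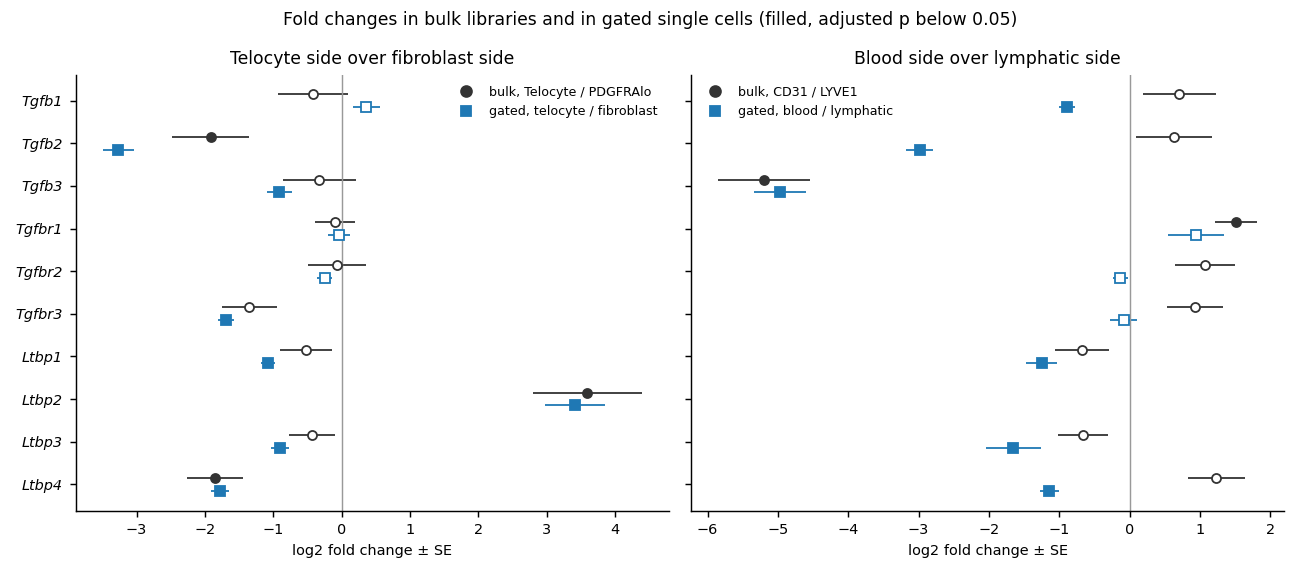
Log2 fold changes with SE bars for Telocyte over PDGFRAlo (left) and CD31 over LYVE1 (right), in bulk libraries (circles) and in the matching marker-gated cells of whole mesenchyme (squares), filled where the adjusted p was below 0.05. On the left every called gene points the same way in both measurements, and on the right Tgfb1, Tgfb2, Tgfbr2, Tgfbr3 and Ltbp4 have opposite signs in the 2 measurements (Ltbp2, with at most 8 counts a library, is not drawn on the right).

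The Ltbp2 signal of whole mesenchyme was not limited to telocyte-like cells. The kept cells held 286 Ltbp2 UMIs in all, and clusters were made without the 10 genes and without the pathway genes listed below. A telocyte-like cluster of 243 cells, led by Ednrb and Tmem158, held 89 of these UMIs (49.4 and 45.1 CPM in the 2 libraries). Another cluster of 443 cells, led by Mmp10, Cxcl14 and Igfbp3 and left without a name, held 162 (38.7 and 57.7 CPM). In that cluster 124 cells fell in no marker gate, and 28 of these carried 122 of the UMIs, up to 18 in the cluster's highest cell, whereas no cell of the telocyte-like cluster had more than 4. The 312 fibroblast-like cells of the same cluster carried 33 of the 50 Ltbp2 UMIs of all fibroblast-like cells. The other genes had these levels in both clusters. Tgfb2 had 115 and 102 CPM in the Mmp10 cluster, against 21.5 and 22.0 CPM in the telocyte-like cluster, and Ltbp4 had 1039.8 and 996 CPM in the Mmp10 cluster, against 532 and 489 CPM in the telocyte-like cluster. Pdgfra had 161 CPM in the Mmp10 cluster and 1209 CPM in the telocyte-like cluster. In the same order, Bmp5 had 141 and 691 CPM, Bmp7 7.29 and 288 CPM and Foxl1 12.5 and 34.5 CPM. Wnt4 (304 and 271 CPM) and Dpt (1219 and 843 CPM) were higher in the Mmp10 cluster. Mesothelial markers, 7 of 8 at 0 in the Mmp10 cluster, summed to 0.291 CPM there. In the sorted library 722 cells fell in no gate and had 37.0 CPM of Ltbp2, in 119 UMIs.

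The 3 fibroblast-like clusters had their highest levels of different genes. The cluster led by Mfap4 and Dkk2 (903 cells) had the highest Ltbp4 of the 3, at 1638 and 1555 CPM, against 1464 and 1412 CPM in the cluster led by Has1 and Tnfaip6 (508 cells) and 1041 and 1057 CPM in the cluster led by Cilp and Ackr4 (380 cells). The Cilp cluster had the highest Tgfb3, at 147 and 121 CPM. Its Ltbp1, 236 and 247 CPM, was the lowest of the 3, and the Mfap4 cluster had 483 and 488 CPM. Tgfbr3 ranged from 328 to 418 CPM over the 3 clusters. These are descriptions of clusters, and no test was made between them.

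**Figure D3:**
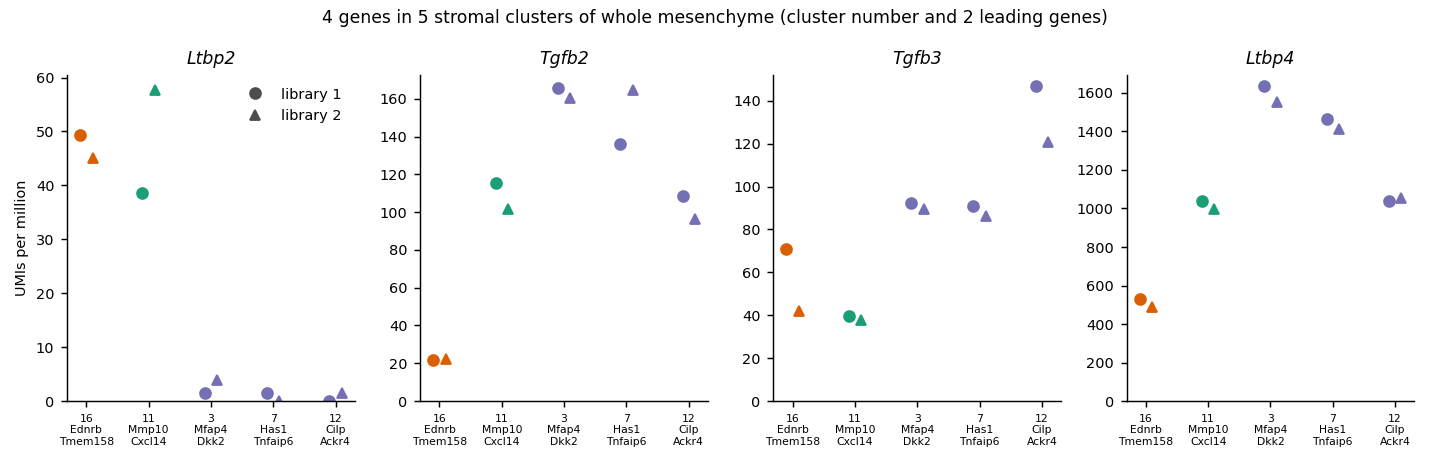
CPM (from UMIs) of 4 genes in 5 stromal clusters of whole mesenchyme, numbered and labelled with their 2 leading genes, with 1 point per library (linear axes from 0). Ltbp2 is high in the telocyte-like cluster 16 and in the Mmp10 cluster 11, while Tgfb2 is at 21.5 and 22.0 CPM in the telocyte-like cluster and above 96 CPM in the other 4.

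Between the CD31 and LYVE1 sorts, and between blood and lymphatic endothelial-like cells, the largest fold among the called genes was that of Tgfb3. CD31 libraries had 1.02 and 2.89 CPM and LYVE1 libraries 39.8 and 101 CPM, a log2 fold change of -5.20 ± 0.66 (adjusted p = 0.00182), the call holding in each of the 13 alternative fits. Blood endothelial-like cells of whole mesenchyme (157 and 157 cells) had 4.57 and 3.55 CPM, against 152 and 144 CPM in lymphatic endothelial-like cells (83 and 79 cells), a log2 fold change of -4.97 ± 0.37 (adjusted p = 8.81e-15). Tgfbr1 was higher in CD31 libraries, at 109.6 and 120.2 CPM, than in LYVE1 libraries, at 42.8 and 37.4 CPM (log2 fold change 1.52 ± 0.30, adjusted p = 0.00812, and 0.0590 without LYVE1 replicate 2). In single cells it had 33.1 and 30.8 CPM in blood and 27.7 and 10.9 CPM in lymphatic endothelial-like cells and was not called (adjusted p = 0.0804). In bulk 1 of the 10 genes was called higher and 1 lower, beside 14.7% of all genes called higher and 8.32% lower (23% in all). Libraries did not overlap for 7 of the 10, against 60.2% of all genes. In single cells 0 of 9 tested genes were called higher and 6 lower, beside 15.4% higher and 11.1% lower (26.5% in all). Ltbp2, with no UMI in either class, was not tested.

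For several genes the 2 measurements of endothelium pointed in different directions. Ltbp4 had 408 and 535 CPM in CD31 libraries and 168 and 233 CPM in LYVE1 libraries, without passing the test (log2 fold change 1.23 ± 0.40, adjusted p = 0.0550), though it passed with DESeq2 (0.00633) and with no low-count filter (0.0443). In whole mesenchyme it was lower in blood endothelial-like cells, at 495 and 559.7 CPM against 1345 and 1325 CPM in lymphatic endothelial-like cells (log2 fold change -1.14 ± 0.14, adjusted p = 4.36e-09). Tgfb1 had 34.0 and 68.5 CPM in CD31 and 23.0 and 39.7 CPM in LYVE1 libraries, which overlap. In single cells it was lower in the blood class, at 184 and 198 CPM against 389.9 and 422 CPM in the lymphatic class (log2 fold change -0.89 ± 0.12, adjusted p = 4.26e-08). Tgfb2 was likewise not called in bulk (29.8 and 58.6 CPM in CD31, 31.3 and 25.8 CPM in LYVE1). It was lower in blood endothelial-like cells, at 25.1 and 41.4 CPM against 281 and 322 CPM in the lymphatic class (log2 fold change -2.99 ± 0.20, adjusted p = 4.04e-16). Ltbp1 and Ltbp3 were lower on the blood side in both measurements and passed the test in single cells (log2 fold changes -1.25 ± 0.22 and -1.65 ± 0.39), not in bulk. Tgfbr2, the ligand-binding receptor, was the most abundant receptor of endothelium. It had 450.1 and 562 CPM in CD31 and 155 and 326 CPM in LYVE1 libraries, and 675 and 671 CPM in blood and 839.8 and 851 CPM in lymphatic endothelial-like cells, and was called in neither, though it passed in bulk with DESeq2 (0.0477). Tgfbr3 had 67.2 and 41.9 CPM in CD31 and 21.2 and 36.2 CPM in LYVE1 libraries. The macrophage, plasma and B cell markers given above stood higher in LYVE1 than in CD31 libraries. Their part in these bulk differences was not tested.

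The PDGFRA populations pooled stood above the pooled CD31 and LYVE1 libraries, called endothelium here, in 8 of the 10 genes. Of all genes 28.8% were called higher and 31.7% lower (60.5% in all). The LYVE1 part of this pool cannot be taken as lymphatic endothelium alone. Libraries did not overlap for 7 of the 10, against 41.2% of all genes. The median log2 fold change of the 10 was 3.11, against -0.07 over all genes. The largest fold changes of the 10 were those of Ltbp2, Ltbp3 and Ltbp1, while the binding protein Ltbp4 lay below Tgfb3 and Tgfbr3. Ltbp3 averaged 363 CPM in PDGFRA libraries and 6.65 CPM in endothelial libraries (log2 fold change 5.79 ± 0.30, adjusted p = 2.94e-06), and Ltbp1 averaged 953 CPM in PDGFRA and 38.2 CPM in endothelial libraries (4.66 ± 0.31). Ltbp2 had 0, 8, 0 and 5 counts in the 4 endothelial libraries, against 137 to 2514 counts in the 4 PDGFRA libraries (log2 fold change 7.59 ± 0.77). Ltbp4 (2.91 ± 0.30), Tgfbr3 (3.32 ± 0.30), and Tgfbr2 (1.55 ± 0.30) were also called, on the log2 scale, as was Tgfb3, with averages of 188 CPM in PDGFRA and 36.1 CPM in endothelial libraries (adjusted p = 7.38e-05). The pooled call of Tgfbr2 held in each of 13 alternatives, CD31 alone as the endothelial side among them. Taken singly, neither Telocyte (adjusted p = 0.0769) nor PDGFRAlo libraries (0.0720) were called against CD31 for Tgfbr2. The call of Tgfbr1 (0.61 ± 0.21, adjusted p = 0.0294) rested on the LYVE1 libraries. With CD31 alone as the endothelial side its log2 fold change was -0.15, and the call also ended without Telocyte replicate 2 (0.106), PDGFRAlo replicate 1 (0.0620), PDGFRAlo replicate 2 (0.0507) or LYVE1 replicate 2 (0.0687). Tgfb1 (34.7 CPM in PDGFRA and 41.3 CPM in endothelial libraries on average) and Tgfb2 (68.8 CPM in PDGFRA and 36.4 CPM in endothelial libraries) were not called. Tgfb2 passed with no low-count filter (adjusted p = 0.0450) and when Telocyte replicate 2 was left out (log2 fold change 1.04).

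The order of the 4 bulk levels can be given for each gene, with the neighbours whose difference passed the test. Of all genes, 52.1% were called between Telocyte and CD31 (22.6% higher, 29.6% lower), 51% between Telocyte and LYVE1 (24% higher, 27% lower), 42.5% between PDGFRAlo and CD31 (21.2% higher, 21.3% lower) and 44.3% between PDGFRAlo and LYVE1 (24.1% higher, 20.2% lower). For Tgfb1 no neighbouring pair was called, from CD31 (51.3 CPM on average) to Telocyte (29.7 CPM). Tgfb2 ran PDGFRAlo, CD31, Telocyte, LYVE1 with no neighbouring pair called. Tgfb3 ran PDGFRAlo, Telocyte, LYVE1, CD31, and only the last pair was called. In Tgfbr1 the step from Telocyte to LYVE1 was called (adjusted p = 0.00589), and the 3 higher groups overlapped. Tgfbr2 had no called neighbouring step, and Tgfbr3 had 1, between Telocyte and CD31 (adjusted p = 0.00223). Ltbp1 and Ltbp3 each dropped between Telocyte and LYVE1 (adjusted p = 9.9e-05 and 2.7e-05). Ltbp2 was called at 2 steps, between Telocyte and PDGFRAlo and between PDGFRAlo and LYVE1 (adjusted p = 0.00442). Ltbp4 differed between PDGFRAlo and Telocyte and between Telocyte and CD31 (adjusted p = 0.0194), but not between CD31 and LYVE1.

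Compared between genes per kilobase of exon, Ltbp4 was the most abundant of the 10 in each bulk group, at 188 CPM per kb on average in Telocyte, 678 in PDGFRAlo, 72.9 in CD31 and 31.1 in LYVE1 libraries. Tgfbr2 ranked second in each. Among the ligands per kb, Tgfb3 made up 77.8% and 86.7% of the summed ligand level in Telocyte and 63.7% and 74.5% in PDGFRAlo libraries. In CD31 libraries it made up 2.47% and 3.48%, where Tgfb1 made up 55.3% of both, and in LYVE1 libraries 54.2% and 70.7%. Ltbp2 was the least abundant binding protein even in Telocyte libraries, at 14.4 CPM per kb.

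Across the 12 gated classes of whole mesenchyme the ligands had different highest classes. Tgfb1 was highest in macrophage-like cells (516 and 498 CPM), followed by lymphatic endothelial-like cells (389.9 and 422 CPM) and B cell-like cells (386 and 374 CPM), and was lowest in plasma cell-like cells (17.0 and 18.1 CPM). Tgfb2 was highest in enteric glia-like cells, at 433 and 388 CPM from 80 and 50 UMIs in 37 and 26 cells, then in lymphatic endothelial-like and fibroblast-like cells. No Tgfb2 UMI was found in macrophage-like or dendritic-like cells, where 3 UMIs would have been 4.80 and 5.30 CPM in the macrophage class. Tgfb3 was highest in lymphatic endothelial-like cells. The lowest level of any ligand in lymphatic endothelial-like cells of either library was 144 CPM, and no other class reached 100 CPM for all 3. Tgfbr1 was highest in macrophage-like cells (178 and 157 CPM), and Tgfbr2 in lymphatic and then blood endothelial-like cells. Tgfbr3 was highest in smooth muscle-like cells (434 and 433 CPM). Ltbp1 and Ltbp3 were highest in fibroblast-like cells, at 429.9 and 429 CPM for Ltbp1 and at 193 and 186 CPM for Ltbp3. Ltbp4 was highest in fibroblast-like cells and close behind in lymphatic endothelial-like cells. Free RNA held 117 and 109.7 CPM of Tgfb1, above the level of every telocyte-, fibroblast-, smooth muscle- and pericyte-like class. Tgfb1 stood at 47.1% of the free-RNA level in telocyte-like and at 31.9% in fibroblast-like cells. For comparison, Tgfb1 in plasma cell-like cells stood at 15.4% of the free-RNA level. How much of the stromal Tgfb1 is free RNA was not tested.

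**Figure D4:**
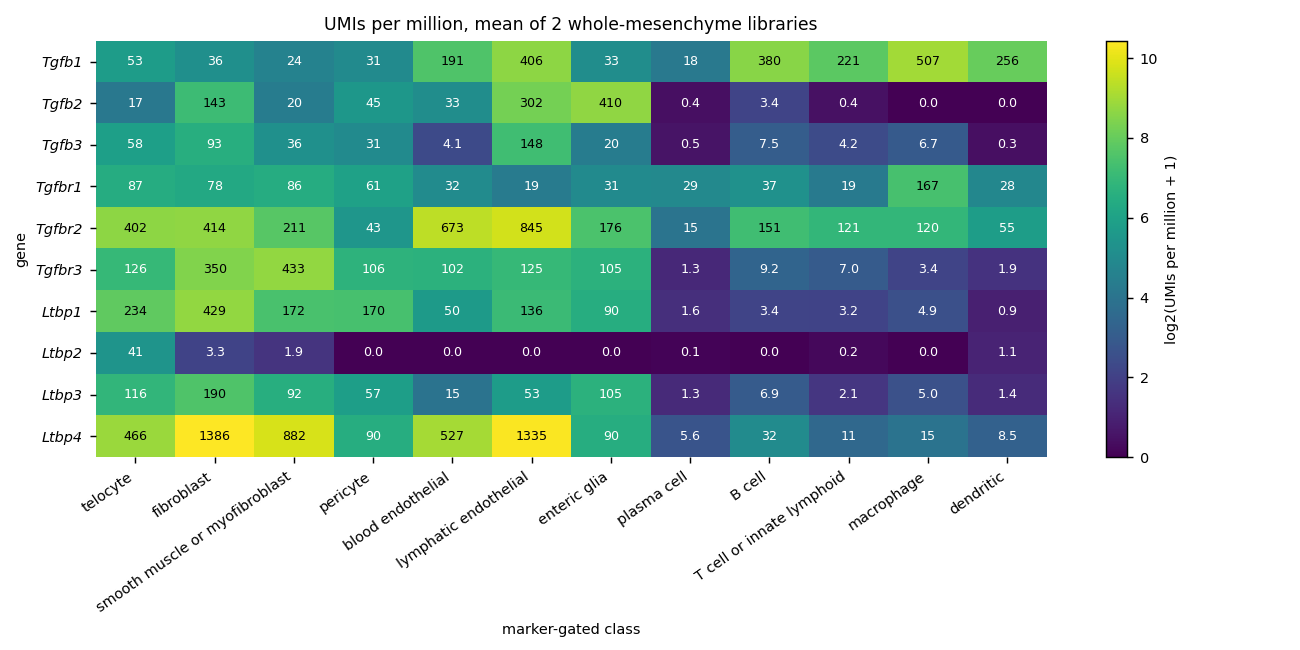
CPM (from UMIs) of each gene (rows) in each marker-gated class (columns), printed as the mean of 2 whole-mesenchyme libraries and coloured by log2(CPM + 1). Ltbp4 reaches 1386 in fibroblast and 1335 in lymphatic endothelial cells, Tgfb1 is highest in macrophages (507), and the binding proteins are low in all immune classes.

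Mural and muscle cells had less of most of these genes than fibroblast-like cells. Pericyte-like cells, only 21 and 29 cells, had 0 of 9 tested genes called higher and 7 lower, beside 6.75% of all genes called higher and 10% lower (16.8% in all). Ltbp4 had 98.1 and 81.2 CPM in pericyte-like cells, against 1405 and 1367 CPM in fibroblast-like cells (log2 fold change -4.30 ± 0.27, adjusted p = 1.62e-16). Tgfbr2 had 21.8 and 65.0 CPM in pericyte-like cells, against 412 and 417 CPM in fibroblast-like cells. The Tgfb3 difference (21.8 and 40.6 CPM in pericyte-like cells, log2 fold change -1.85 ± 0.47) depended on the gate. With clusters in place of gates it was -0.17 (adjusted p = 0.403), but the larger of the 2 clusters behind that value, led by Pln and Nrip2 (157 cells, 115 and 126 CPM of Tgfb3), had more smooth muscle than pericyte marker counts (7806 and 3613 CPM) and held 50 smooth muscle-gated and 18 pericyte-gated cells. The other cluster, led by Vtn and Chrdl1 (69 cells), had 50.3 and 72.8 CPM. With the same clusters the genes not called by gate, Tgfb1 (adjusted p = 0.0148) and Tgfbr1 (2.75e-07), were called lower, and Tgfbr1 also with the looser gate (0.00842). Smooth muscle- or myofibroblast-like cells (276 and 223 cells) had 0 genes higher and 7 of 10 lower, beside 19.5% higher and 21.8% lower (41.2% in all). Tgfb2 fell to 16.3 and 23.3 CPM in them (log2 fold change -3.03 ± 0.15) and Ltbp1 to 168 and 176 CPM (-1.48 ± 0.08). Tgfbr1, at 86.6 and 86.1 CPM, and Tgfbr3 were not called.

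Immune classes and stromal classes (telocyte-, fibroblast-, smooth muscle- and pericyte-like) divided Tgfb1 from the rest. Tgfb1 averaged 276 CPM over 5 immune classes and 36.2 CPM over 4 stromal classes, a log2 fold change of 2.99 ± 0.09 (adjusted p = 6.73e-30). Plasma cell-like cells, with 17.0 and 18.1 CPM, lay below the stromal average, and the other 4 immune classes lay above it. Tgfb1 was the only gene called higher of 8 tested, and the other 7 were called lower, beside 28.8% of all genes called higher and 31.2% lower (60% in all). Ltbp1 averaged 2.82 CPM in immune and 251 CPM in stromal classes, and Ltbp4 averaged 14.4 CPM in immune and 706 CPM in stromal classes. Tgfbr2 averaged 92.4 CPM in immune and 268 CPM in stromal classes (log2 fold change -0.87 ± 0.16). The smallest difference, Tgfbr1 (56.0 CPM in immune and 78.1 CPM in stromal classes, -0.36 ± 0.15, adjusted p = 0.0346), ended with clusters in place of gates (0.030, adjusted p = 0.859), with predicted doublets kept (0.118) and with no low-count filter (0.0504). Tgfb2 and Ltbp2 had classes without a UMI and were not tested.

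Similarity of pattern was measured by Pearson's r of log2(CPM + 1) over 24 sums (12 classes in 2 libraries), among 13694 genes with 50 or more UMIs, apart from the 10 genes and the gating markers. The sums of a class share cells and depth, and these values are descriptions. The genes nearest to Tgfb2 were Tmod2, Gprc5b and Prss23 (0.939 to 0.937), and those nearest to Tgfb3 were Tnxb, Ptgfrn and Desi2 (0.942 to 0.915). Nearest to Tgfbr3 were Serpinb6a, Rbfox2 and Parva (0.970 to 0.965), and nearest to Ltbp1 were Tril, Parva and Serping1 (0.980 to 0.976). Ltbp2 was nearest to Syt17, Kcng4 and Hs3st3a1 (0.951 to 0.941), and Ltbp4 to Plpp3, Phldb2 and Ghr (0.948 to 0.942). Among the 10 genes, Ltbp1 and Ltbp3 had the highest r with each other (0.970), and Tgfb1 had a negative r with 8 of the other genes.

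Other genes of the pathway were followed in 5 lists of 50 genes: Smads and nuclear regulators, co-receptors, activators of latent TGF-beta, matrix anchors and textbook targets. In Telocyte against PDGFRAlo libraries 4 of 48 tested genes were higher and 9 lower, beside 2.77% and 12.1% of all genes. Of 10 Smads and nuclear regulators 0 were called, beside 14.9% of all genes. Among anchors, Fbn2, a fibrillin that forms the microfibrils binding LTBPs, was higher (95.4 CPM in Telocyte, 2.30 CPM in PDGFRAlo, log2 fold change 5.38), and Nrros, a membrane anchor of latent TGF-beta on macrophages, was lower (2.49 CPM in Telocyte, 23.9 CPM in PDGFRAlo). Tgfbrap1, a receptor-associated protein, was higher (185 CPM in Telocyte, 32.2 CPM in PDGFRAlo) and Bambi, a decoy receptor, lower (6.86 CPM in Telocyte, 60.3 CPM in PDGFRAlo). Of the activators, Itgb3 and Mmp9 were lower. Macrophage markers summed to 54.2 and 35.2 CPM in Telocyte libraries and to 633 and 241 CPM in PDGFRAlo libraries. Their part in the Nrros, Itgb3 and Mmp9 differences was not tested. The targets split, with Tagln, an actin-binding protein of contractile cells, higher (537 CPM in Telocyte, 88.7 CPM in PDGFRAlo) and Col3a1, a fibrillar collagen, lower (5361 CPM in Telocyte, 31314 CPM in PDGFRAlo). Of the 8 smooth muscle markers 0 were higher and 5 lower in this comparison, beside 2.77% and 12.1% of all genes. Their summed levels overlapped, at 836 and 485 CPM in Telocyte and 664 and 370 CPM in PDGFRAlo libraries. Telocyte-like cells of whole mesenchyme had 13 of 46 genes higher and 17 lower than fibroblast-like cells, beside 10.7% and 13.2% of all genes. Fbn2 (170 CPM in telocyte-like, 3.87 CPM in fibroblast-like cells), Tgfbrap1 (80.0 CPM in telocyte-like, 15.7 CPM in fibroblast-like cells), Tagln, Acta2, Eng and the protease genes Plat and Plau were higher. Aspn, Ski and Smad7 were lower. Of the 8 tested textbook targets 3 were higher and 5 lower, with a median log2 fold change of -1.12.

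In CD31 against LYVE1 libraries 16 of 48 pathway genes were higher and 5 lower, beside 14.7% and 8.32% of all genes. Eng and Acvrl1, endothelial co-receptor and type I receptor, were higher in CD31 (for Eng 367 CPM in CD31 and 50.1 CPM in LYVE1, for Acvrl1 404 CPM in CD31 and 90.7 CPM in LYVE1), as were Smad3, Smad7, Plat, Furin, Bgn and Col1a2. Emilin1, an elastic fibre protein known to restrain processing of the TGF-beta precursor, was lower (11.7 CPM in CD31, 76.3 CPM in LYVE1). In single cells 19 of 46 were higher and 10 lower in the blood class, beside 15.4% and 11.1% of all genes. Acvrl1, Eng, Smad7, Plat, Bgn, Tgfbi and Tagln were higher there, and Emilin1 (23.2 CPM in the blood class, 275 CPM in the lymphatic class), Itgav and Smad4 were lower. PDGFRA libraries against endothelium had 31 of 48 higher and 8 lower, beside 28.8% and 31.7% of all genes, the named genes being Mmp2, Itgav, Fn1, Bgn, Tgfbrap1, Smad3, Smurf1, Col1a2 and Col3a1 (higher) and Fkbp1a (lower). Pericyte-like cells had 3 of 46 higher and 17 lower than fibroblast-like cells, beside 6.75% and 10% of all genes. Tagln and Acta2 were higher, and Mmp2, Mmp14, Dcn, Bgn, Pmepa1, Fkbp1a and Skil were lower. Of 8 tested textbook targets, 2 were higher there and 5 lower (median log2 fold change -3.14). Smooth muscle-like cells had 11 of 46 higher and 22 lower, beside 19.5% and 21.8% of all genes. Tagln, Acta2 and Fkbp1a were higher, and Mmp2, Itgb5, Fbn1, Dcn, Pmepa1, Smad3 and Ski were lower. Of 8 tested textbook targets, 4 were higher there and 4 lower (median log2 fold change -0.76). Immune classes had 8 of 46 higher and 30 lower than stromal classes, beside 28.8% and 31.2% of all genes, with Tgif1 and Skil higher and Itgb1, Itgb5, Aspn, Bgn, Eng, Acvrl1, Tagln and Acta2 lower.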

How the data were processed

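The members and gene lists were chosen with earlier results of these data known. Bulk values are unscaled counts per gene, deposited by the authors as 1 table. The aligner was STAR and the build mm10, per the submitters' processing notes. For the counting program and its strand setting: not given in the sources used here. Libraries were made with SMART-Seq v4 from 5 to 10 ng of RNA, per the labels' protocols. Library totals were 8549348 to 55382442 counts. Of 24969 names, 24449 matched GENCODE M21 symbols, and 26 names turned into dates were left out. In edgeR 4.0.16 (R 4.3.3), filterByExpr kept 14893 genes. One model held 4 group means with TMM scaling and a quasi-likelihood test (4 residual degrees of freedom, common biological coefficient of variation 0.381). Bulk CPM are counts scaled to TMM library sizes. P-values were adjusted by Benjamini-Hochberg over all genes and called below 0.05.

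Single-cell values are UMI counts deposited by the authors as Cell Ranger matrices (2.1.1 for the sorted library, 3.0.2 for whole mesenchyme, per the submitters' processing notes). Cells had 500 or more genes, under 10% mitochondrial UMIs and a scrublet score of 0.25 or less. That score limit was set after the automatic threshold marked only 6 cells in 1 library. This left 3845, 6128 and 5927 cells. A cell was assigned to a class when it carried 3 or more of 8 markers and 2 or more above every other list. UMIs were summed per class and whole-mesenchyme library, for 12 classes. The edgeR model of these sums had class means and a library term (11504 genes, gating markers left out). Any of the 10 genes with no UMI in a compared class was not tested there. This rule was not applied to pathway genes (46 in each comparison) or to the shares of all 11504 genes. Clusters were made in scanpy 1.11.5 with Leiden (leidenalg 0.10.2, resolution 1). Free RNA is the sum of unfiltered barcodes with 1 to 100 UMIs. All 10 genes are named, and for each pathway list the 2 called genes with the smallest p, except 1 gene that is not reported here. Coordinates and exon lengths are from GENCODE M21 (GRCm38), promoters from RefSeq. On simulated data, the Telocyte against PDGFRAlo test called 31 of 100 genes altered 4-fold and 0 of 100 altered 2-fold (14573 genes). The telocyte-like against fibroblast-like test called 96 of 100 and 57 of 96, with 6 false calls (10425 genes).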

Additional observations from a re-analysis of the deposited data

Results flagged for a closer look

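In 3 genes the 2 measurements of blood over lymphatic endothelium went in opposite directions: both CD31 libraries stood above both LYVE1 libraries, and both whole-mesenchyme libraries had the lower CPM in the blood endothelial-like class. The genes were Ltbp4 (bulk log2 fold change 1.23), Tgfbr2 (1.07) and Tgfbr3 (0.92). None of the 3 passed the bulk test with edgeR. Ltbp4 passed with DESeq2 (adjusted p = 0.00633) and with no low-count filter (0.0443), and Tgfbr2 with DESeq2 (0.0477). Of the 3 only Ltbp4 passed the edgeR test in single cells (log2 fold change -1.14). Tgfbr2 (-0.13 ± 0.11, adjusted p = 0.449) and Tgfbr3 (-0.08 ± 0.19, adjusted p = 0.826) had small fold changes there. How many of all genes went in opposite directions was not counted. The difference between the 2 measurements was not tested. Bulk CD31 and LYVE1 libraries came from antibody-sorted C57BL/6 cells and the single cells from marker gates, and macrophage markers summed to 2727 and 2032 CPM in CD31 and 7252 and 9663 CPM in LYVE1 libraries. No cause was tested.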

How the results depend on the processing

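Alternatives were DESeq2, RLE size factors, no low-count filter, the replicate number as a block, only the 4 libraries compared, each library left out, looser and stricter gates, Leiden clusters in place of gates, and predicted doublets kept. CD31 alone as the endothelial side was chosen after seeing the data. The cause of a changed call was not tested. With 1 library left out, Telocyte over PDGFRAlo gave 0 to 1 genes higher, 0 to 2 lower and 1047 to 2274 genes called over the whole table, and CD31 over LYVE1 gave 0 to 1 higher and 1168 to 3304 called. PDGFRA over endothelium gave 7 to 8 higher. In those fits the lone library of a group is assumed to vary like the other groups. Telocyte over PDGFRAlo had 0 of the 10 genes higher with DESeq2, and 1 lower with RLE size factors and with the replicate block. CD31 over LYVE1 had 3 higher with DESeq2, 2 with no low-count filter and 2 with the replicate block, where Ltbp4 passed (adjusted p = 0.0420). Same-numbered libraries share only a number (correlations of deviations from -0.0970 to 0.279). Telocyte-like over fibroblast-like cells had 0 higher with DESeq2. With Leiden clusters, 4568 genes were called for pericyte-like cells, against 1930 with gates, and 1 of the 10 genes was higher in smooth muscle-like cells. With 1 library left out, values that were not called changed sign within these log2 ranges: in Telocyte over PDGFRAlo, Tgfb1 from -0.95 to 0.46, Tgfb3 from -0.58 to 0.026, Tgfbr1 from -0.28 to 0.041 and Tgfbr2 from -0.14 to 0.045. In CD31 over LYVE1, Ltbp2, at 8 counts or fewer a library, ranged from -5.06 to 4.50, and in PDGFRA over endothelium Tgfb1 ranged from -0.59 to 0.074. Tgfbr1 had the opposite sign with CD31 alone (-0.15) and, with Leiden clusters, in smooth muscle-like cells (0.18) and in immune classes (0.030). The bulk self-test on simulated data covered Telocyte against PDGFRAlo only and gave every gene the same biological coefficient of variation. It called 0 of 100 genes with a 2-fold change, so an uncalled gene of that comparison may still differ by that size. The other bulk comparisons were not simulated.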
